A study of Mus musculus with 13 samples.

Results

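The genes described here are the enzymes, regulators and carriers that make cholesterol and fatty acids, a list of 30 defined by gene symbol. The list was chosen with earlier results of these data known. Of the 30 genes, 28 had a probe named with their symbol on the Illumina mouse bead array. All 28 were among the 10923 genes tested, of 16593 genes with a named probe in the series. The other 2, Mvk and Fdft1, had no probe named with their symbol here and are not analysed. The series compared neural stem cells induced from mouse embryonic fibroblasts with neural cells of other origins, in total RNA from 13 samples all labelled with the mouse strain C3H. The sample called iNSC in vivo (1 array) holds induced cells labelled with the number 14, without a unit, after transplantation into the adult mouse brain, and NSC in vivo (1 array) is labelled as in vivo neural stem cells with no mention of a transplant. In culture there were 3 clones of induced neural stem cells (iNSC), 3 clones of neural progenitors differentiated from embryonic stem cells (ESC NPC) and 3 clones of neural stem cells (NSC). Mouse embryonic fibroblasts (MEF) and embryonic stem cells (ESC) had 1 array each. The labels name no cell sort. The clone numbers do not show whether clones came from separate animals, so p-values measure only the spread between these arrays, and the comparisons reuse the iNSC, ESC NPC and NSC arrays.

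Cholesterol is built from acetyl-CoA through mevalonate, isoprenoid diphosphates, squalene and lanosterol, and lanosterol is then trimmed and reduced to cholesterol. Fatty acids are built from the same acetyl-CoA, extended by elongases and given double bonds by desaturases. Both branches are known targets of the SREBP transcription factors, which are held in the endoplasmic reticulum when sterols are plentiful, and the brain makes its own cholesterol because lipoproteins of the blood do not cross into it. Srebf2 is best known for the sterol branch and Srebf1 for the fatty acid branch.

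Promoter windows of the members are shown because SREBP proteins are known to bind near these start sites together with the factor NF-Y, which binds CCAAT boxes. RefSeq sequences of the GRCm38.p6 build, running from 250 bases before to 50 bases after each start, were at hand for 23 of the 30 genes. The letters TCACNCCAC, the core of the sterol regulatory element, were searched on both strands and occurred in 1 of 23 member genes, Hmgcs1 (4.35%), against 1.44% of all 27025 genes. CCAAT was searched on both strands as well and occurred in 20 of 23 member genes (87%) against 41.1% of all genes, or in 21 of 28 member promoters (75%) against 37.4% of all 32851 promoters. It was not in the windows of Acaca, Elovl6 and Fads2. GGGCGG, the box of the factor Sp1, occurred on either strand in 19 of 23 member genes (82.6%), against 38.2% of all genes. A match is only a match of letters, and no occupancy was measured. The windows below belong to Hmgcs1 (chr13:119690101-119690400, plus strand), to Lss (chr10:76531355-76531654, plus strand), to Msmo1 (chr8:64733529-64733828, minus strand) and to Hsd17b7 (chr1:169969156-169969455, minus strand). They stand for the sterol enzymes that differed most between cultured cells, except Hmgcs1, which is shown for its sterol element. Fads2 (chr19:10101454-10101753, minus strand) is the desaturase that differed most and has no CCAAT. Capitals mark TCACNCCAC in Hmgcs1, and CCAAT or its complement ATTGG in Hmgcs1, Lss, Msmo1 and Hsd17b7, with no base shared between the motifs, and Fads2 has no capitals.
Hmgcs1: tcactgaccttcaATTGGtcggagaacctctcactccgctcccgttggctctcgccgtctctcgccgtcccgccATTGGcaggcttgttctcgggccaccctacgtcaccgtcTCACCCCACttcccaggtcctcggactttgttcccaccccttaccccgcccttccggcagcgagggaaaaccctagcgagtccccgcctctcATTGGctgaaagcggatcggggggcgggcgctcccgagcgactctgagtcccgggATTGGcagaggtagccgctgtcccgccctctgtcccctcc
Lss: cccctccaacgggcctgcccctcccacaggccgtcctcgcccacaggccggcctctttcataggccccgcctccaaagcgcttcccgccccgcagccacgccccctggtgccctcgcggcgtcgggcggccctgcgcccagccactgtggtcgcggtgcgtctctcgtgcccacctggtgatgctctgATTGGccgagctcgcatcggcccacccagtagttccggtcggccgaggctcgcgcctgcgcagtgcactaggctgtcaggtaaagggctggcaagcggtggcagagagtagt
Msmo1: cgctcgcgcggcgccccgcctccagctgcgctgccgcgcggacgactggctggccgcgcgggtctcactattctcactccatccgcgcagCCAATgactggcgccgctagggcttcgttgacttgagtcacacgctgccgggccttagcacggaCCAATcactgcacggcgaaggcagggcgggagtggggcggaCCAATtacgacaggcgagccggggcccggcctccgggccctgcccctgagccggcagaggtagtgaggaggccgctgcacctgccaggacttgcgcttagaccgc
Hsd17b7: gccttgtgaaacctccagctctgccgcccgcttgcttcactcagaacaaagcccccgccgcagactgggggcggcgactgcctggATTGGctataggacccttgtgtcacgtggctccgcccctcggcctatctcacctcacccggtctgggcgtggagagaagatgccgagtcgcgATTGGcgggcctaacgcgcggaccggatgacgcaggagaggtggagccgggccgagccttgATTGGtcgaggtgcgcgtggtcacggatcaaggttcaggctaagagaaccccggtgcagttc
Fads2: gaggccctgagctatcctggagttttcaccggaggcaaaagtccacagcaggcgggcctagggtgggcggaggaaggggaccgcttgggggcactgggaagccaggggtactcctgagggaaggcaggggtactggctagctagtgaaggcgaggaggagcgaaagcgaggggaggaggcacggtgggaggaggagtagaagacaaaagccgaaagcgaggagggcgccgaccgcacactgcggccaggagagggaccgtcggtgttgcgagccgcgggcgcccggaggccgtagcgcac

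Levels below are log2 normalised signals, and a probe was called detected on an array when the authors' detection p was under 0.01. The in vivo arrays were dimmer: they detected 26.2% to 26.7% of all probes at a median signal of 79.3 to 80.1, against 40.8% to 49.9% at 102 to 117 on the 11 cultured arrays. The lowest level of a detected probe was 6.50 on iNSC in vivo and 6.44 on NSC in vivo, against 4.60 to 5.05 in culture. By the 1 probe used for each gene, 16 of the 28 members were detected on iNSC in vivo and 12 on NSC in vivo, and over all probes of a gene 17 and 12, against 26 to 28 by the probe used on each cultured array. The labelled cell types were checked against marker genes. Summed signals of markers add the deposited bead intensities, without background correction or normalisation, so they also carry the brightness of each array. Both in vivo arrays detected only 2 of 7 neural stem markers, with Sox2, Nes, Fabp7 and Olig2 undetected on both, whereas all 7 were detected in iNSC and NSC and 6 of 7 in ESC NPC. MEF also detected all 7 of these, together with 7 of 7 fibroblast markers. ESC NPC detected 7 of 7 pluripotency markers, with a summed signal of 8910 to 9954, against 741 to 754 in NSC and 40240 in ESC. The median SD over the 3 clones was 0.19 for members in iNSC, 0.11 in ESC NPC and 0.23 in NSC, against 0.15, 0.10 and 0.16 for all genes tested. For the 4 groups with a single array the fit borrows the spread of the clones, an assumption these arrays cannot test.

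**Figure D1:**
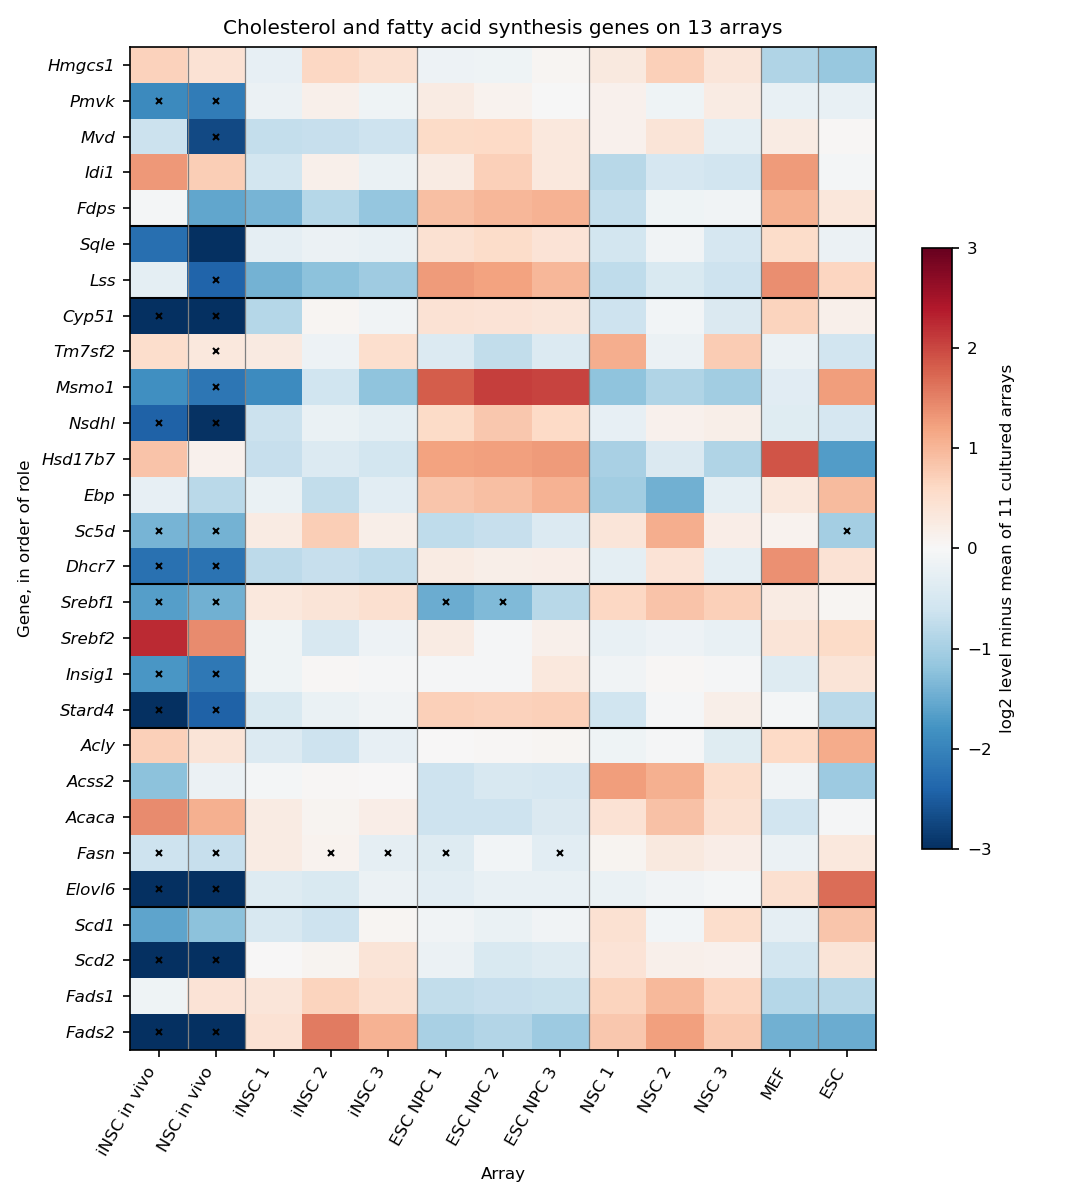
Level of each of the 28 tested members (rows, ordered by role from mevalonate to desaturases) on each of 13 arrays (columns), as the log2 difference from that gene's mean over the 11 cultured arrays, with crosses where the gene's probe was not detected. ESC NPC columns are red for most sterol enzymes and blue for Fads1, Fads2 and Srebf1, and 12 members on iNSC in vivo and 16 on NSC in vivo carry crosses.

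The enzymes of the mevalonate steps did not share a pattern over the cultured groups. Hmgcs1, HMG-CoA synthase, had levels of 14.01 on iNSC in vivo, 13.76 on NSC in vivo, 13.08, 13.95 and 13.80 in iNSC, 13.16, 13.20 and 13.37 in ESC NPC, 13.62, 14.04 and 13.69 in NSC, 12.42 in MEF and 12.18 in ESC. MEF and ESC lay below all 9 clones, and the iNSC and NSC clones overlapped. Mvd, the decarboxylase that yields isopentenyl diphosphate, stood at 6.69 on iNSC in vivo, 4.64 (not detected) on NSC in vivo, 6.63, 6.65 and 6.72 in iNSC, 7.91, 7.93 and 7.66 in ESC NPC, 7.47, 7.73 and 7.04 in NSC, 7.59 in MEF and 7.37 in ESC. All 3 iNSC clones were below all 3 NSC clones, and iNSC in vivo lay inside the iNSC range. Idi1, the isomerase of isopentenyl diphosphate, read 7.75 on iNSC in vivo, 7.19 on NSC in vivo, 5.90, 6.62 and 6.26 in iNSC, 6.70, 7.17 and 6.78 in ESC NPC, 5.62, 5.96 and 5.88 in NSC, 7.73 in MEF and 6.40 in ESC. Both in vivo arrays were above every clone. Fdps, which joins isoprenoids into farnesyl diphosphate, gave 10.71 on iNSC in vivo, 9.21 on NSC in vivo, 9.39, 9.92 and 9.63 in iNSC, 11.67, 11.77 and 11.82 in ESC NPC, 10.07, 10.66 and 10.68 in NSC, 11.84 in MEF and 11.12 in ESC. Its clones fell into 3 ranges that did not overlap, with iNSC lowest and ESC NPC highest. Pmvk, phosphomevalonate kinase, ranged only between 6.71 and 7.18 over the 11 cultured arrays.

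Both measured enzymes that lead from farnesyl diphosphate to lanosterol were highest in ESC NPC and MEF. Sqle, squalene epoxidase, had 8.18 on iNSC in vivo, 6.74 on NSC in vivo, 10.16, 10.27 and 10.21 in iNSC, 10.90, 10.99 and 10.85 in ESC NPC, 9.89, 10.32 and 9.94 in NSC, 10.99 in MEF and 10.26 in ESC. The iNSC clones lay inside the NSC range, and both in vivo arrays were below every cultured array. Lss, lanosterol synthase, had 6.70 on iNSC in vivo, 4.59 (not detected) on NSC in vivo, 5.56, 5.75 and 5.91 in iNSC, 8.27, 8.19 and 7.98 in ESC NPC, 6.23, 6.53 and 6.37 in NSC, 8.38 in MEF and 7.63 in ESC. Its order from low to high was iNSC, NSC, ESC and then ESC NPC, and these cultured ranges did not overlap, with MEF above all of them.

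Among the enzymes that turn lanosterol into cholesterol, most were highest in ESC NPC or MEF. Cyp51, lanosterol demethylase, was not detected on iNSC in vivo (4.70) or NSC in vivo (4.45) and had 7.60, 8.52 and 8.35 in iNSC, 8.88, 8.85 and 8.82 in ESC NPC, 7.83, 8.36 and 8.01 in NSC, 9.13 in MEF and 8.61 in ESC. The iNSC clones spread over a wider range than the NSC clones and contained it. Msmo1, the methylsterol monooxygenase that follows, had 6.59 on iNSC in vivo, 6.27 (not detected) on NSC in vivo, 6.55, 7.84 and 7.22 in iNSC, 10.26, 10.50 and 10.47 in ESC NPC, 7.22, 7.53 and 7.38 in NSC, 8.10 in MEF and 9.69 in ESC. ESC NPC and ESC stood far above the other cultured cells, and iNSC replicate 1 was the lowest clone. Nsdhl, the dehydrogenase that works with Msmo1 in removing methyl groups, was not detected by its probe with the highest mean on iNSC in vivo (4.75) or NSC in vivo (4.22) and by that probe had 6.52, 6.97 and 6.87 in iNSC, 7.75, 7.98 and 7.76 in ESC NPC, 6.93, 7.31 and 7.36 in NSC, 6.80 in MEF and 6.66 in ESC. Only ESC NPC was separate from the other cultured groups by that probe. Another probe of Nsdhl, ILMN_2958207, read 7.37 on iNSC in vivo and was detected there.

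Hsd17b7, the ketosteroid reductase of the same demethylation, had 9.77 on iNSC in vivo, 9.06 on NSC in vivo, 8.23, 8.52 and 8.38 in iNSC, 10.14, 10.15 and 10.21 in ESC NPC, 7.96, 8.48 and 8.01 in NSC, 10.82 in MEF and 7.25 in ESC. MEF was highest and ESC lowest. Ebp, a sterol isomerase, had 7.77 on iNSC in vivo, 7.19 on NSC in vivo, 7.80, 7.27 and 7.70 in iNSC, 8.84, 8.92 and 9.05 in ESC NPC, 6.96, 6.57 and 7.71 in NSC, 8.33 in MEF and 8.96 in ESC. ESC lay inside the ESC NPC range, and both in vivo arrays lay inside the NSC range or just above it. Dhcr7, the reductase that completes cholesterol, was not detected on iNSC in vivo (4.30) or NSC in vivo (4.32) and had 5.75, 5.85 and 5.76 in iNSC, 6.77, 6.71 and 6.73 in ESC NPC, 6.25, 6.94 and 6.23 in NSC, 7.90 in MEF and 6.97 in ESC. Its iNSC clones were below every other cultured array. The sterol reductase Tm7sf2 ranged from 5.32 to 7.15 over the cultured arrays with a median of 5.88, and the sterol desaturase Sc5d from 4.84, not detected in ESC, to 6.94 with a median of 6.02.

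The regulators differed from one another. Srebf1 was not detected on iNSC in vivo (4.23) or NSC in vivo (4.45) and had 6.19, 6.28 and 6.37 in iNSC, 4.39, 4.55 and 5.05 in ESC NPC, 6.50, 6.74 and 6.59 in NSC, 6.13 in MEF and 5.94 in ESC. In ESC NPC it was detected in 1 of 3 clones, replicate 3, and all 3 lay below every other cultured array. Srebf2 had 9.76 on iNSC in vivo, 8.92 on NSC in vivo, 7.39, 7.04 and 7.36 in iNSC, 7.77, 7.48 and 7.66 in ESC NPC, 7.29, 7.37 and 7.30 in NSC, 7.91 in MEF and 8.08 in ESC. The 2 in vivo arrays were above every cultured array. Stard4, a sterol transfer protein, was not detected on iNSC in vivo (4.30) or NSC in vivo (6.27) and had 8.22, 8.49 and 8.57 in iNSC, 9.40, 9.38 and 9.39 in ESC NPC, 8.09, 8.65 and 8.86 in NSC, 8.62 in MEF and 7.87 in ESC. Stard4 was highest in ESC NPC, whose clones were nearly equal. Insig1, which holds the SREBP complex in the endoplasmic reticulum, kept within 7.82 to 8.58 over the cultured arrays by its probe with the highest mean. By other probes ESC stood above the other cultured groups. ILMN_1245272 read 7.70 in ESC against group means of 5.85 to 6.15, and ILMN_2606693 read 7.55 against 5.79 to 6.09.

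Enzymes of fatty acid synthesis and elongation had their extremes in different groups. Acly, ATP citrate lyase, which makes cytosolic acetyl-CoA from citrate, had 11.72 on iNSC in vivo, 11.37 on NSC in vivo, 10.59, 10.37 and 10.74 in iNSC, 11, 11.03 and 11.06 in ESC NPC, 10.86, 10.96 and 10.62 in NSC, 11.59 in MEF and 12.11 in ESC. ESC was highest. Acss2, which makes acetyl-CoA from acetate, had 7.0 on iNSC in vivo, 8.07 on NSC in vivo, 8.17, 8.27 and 8.24 in iNSC, 7.63, 7.76 and 7.73 in ESC NPC, 9.49, 9.31 and 8.76 in NSC, 8.14 in MEF and 7.14 in ESC. All 3 NSC clones were above every other array. Elovl6, the elongase of palmitate, was not detected on iNSC in vivo (4.69) or NSC in vivo (4.36) and had 7.80, 7.73 and 8.02 in iNSC, 7.88, 7.96 and 7.97 in ESC NPC, 7.98, 8.09 and 8.13 in NSC, 8.66 in MEF and 9.86 in ESC. ESC and then MEF were above all clones, whose 3 groups overlapped or nearly touched. Acaca, acetyl-CoA carboxylase, ranged in culture from 8.58 to 10.07 with a median of 9.29. Fasn, fatty acid synthase, was close to background everywhere, at 4.52 to 5.23 in culture, and was detected on 7 of 13 arrays.

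The paired desaturases Fads1 and Fads2 were high in neural stem cells of either origin. Fads2, a desaturase of polyunsaturated fatty acids, was not detected on iNSC in vivo (4.34) or NSC in vivo (4.28) and had 8.48, 9.62 and 9.10 in iNSC, 7.07, 7.18 and 6.97 in ESC NPC, 8.87, 9.28 and 8.84 in NSC, 6.62 in MEF and 6.56 in ESC. The iNSC and NSC clones overlapped and lay above ESC NPC, which lay above MEF and ESC. Fads1, which acts after Fads2, had 12.30 on iNSC in vivo, 12.84 on NSC in vivo, 12.78, 13.10 and 12.90 in iNSC, 11.68, 11.74 and 11.75 in ESC NPC, 13.10, 13.39 and 13.08 in NSC, 11.56 in MEF and 11.60 in ESC. It followed the same order in culture. Scd2, the stearoyl-CoA desaturase best known from brain, was not detected on iNSC in vivo (5.02) or NSC in vivo (5.27) and had 8.90, 8.97 and 9.26 in iNSC, 8.70, 8.43 and 8.49 in ESC NPC, 9.28, 9.02 and 9.01 in NSC, 8.32 in MEF and 9.27 in ESC. ESC NPC and MEF were lowest among the cultured groups. Its relative Scd1 ranged from 9.59 to 11.05 in culture with a median of 10.12, highest in ESC.

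**Figure D2:**
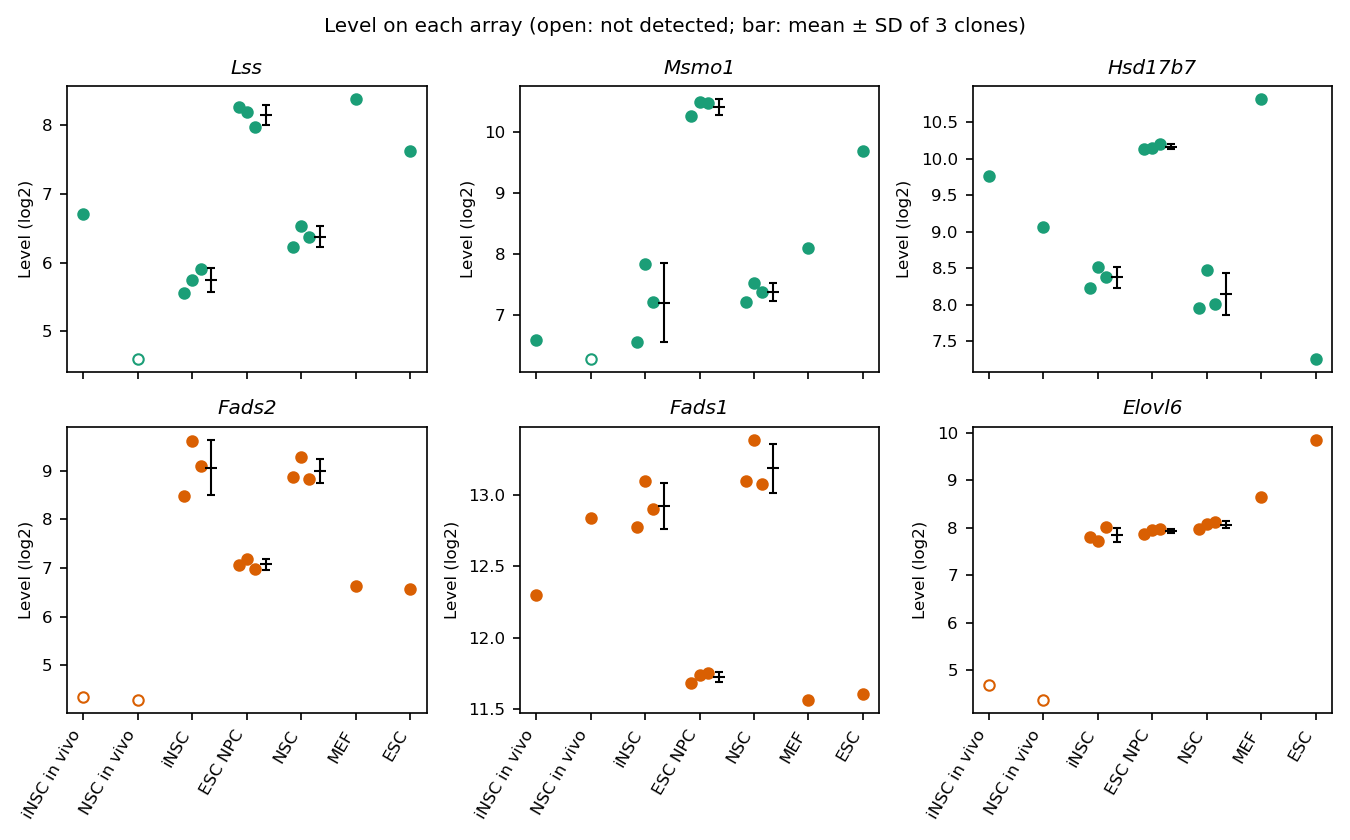
Log2 level on every array for 3 sterol enzymes (upper panels) and 3 fatty acid enzymes (lower panels), with open points where the gene's probe was not detected and bars for the mean ± SD of 3 clones. Lss, Msmo1 and Hsd17b7 are higher in ESC NPC than in iNSC and NSC, whereas Fads2 and Fads1 are lower there.

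Setting iNSC against NSC addressed how near the induced cells come to neural stem cells. A few sterol enzymes and the acetate enzyme Acss2 were lower in iNSC, and no member was called higher. Acss2 fell by 0.96 ± 0.17 (log2, SE; adjusted p = 0.00336, limma with Benjamini-Hochberg adjustment over all 10923 genes, as in every comparison). Fdps fell by 0.82 ± 0.18 (adjusted p = 0.0126) and Mvd fell by 0.74 ± 0.16 (adjusted p = 0.0118), both of the mevalonate steps. Dhcr7 fell by 0.69 ± 0.17 (adjusted p = 0.0213) and Lss fell by 0.64 ± 0.13 (adjusted p = 0.00762). In each of these 5 genes all 3 iNSC clones were below all 3 NSC clones. The same held for Srebf1 and Acaca, which did not pass (adjusted p = 0.198 and 0.0540). The share of all genes so separated was not counted. The called members were 5 of 28 lower, 17.9%, and 0 of 28 higher, against 9.42% lower and 10.3% higher (19.7% in all) among all genes tested. At an unadjusted p under 0.05, 8 members were lower and 0 higher, and 22 of 28 differences were negative, with a median of -0.17 against 0.01 over all genes tested.

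These calls were few and some were fragile. Dhcr7 had an adjusted p of 0.0614 without iNSC replicate 1 and 0.0649 without iNSC replicate 3, and without NSC replicate 2 the count became 8, 7 lower and 1 higher. In a fit with clone numbers as a replicate block, 4 members were called: Mvd and Dhcr7 each stood at an adjusted p of 0.0544, and Scd1 at 0.0410, with a difference of -0.64. In a fit of only these 2 groups, Fdps had an adjusted p of 0.0520 and Dhcr7 of 0.0755. The desaturases Fads2 (0.07 ± 0.25, adjusted p = 0.894) and Fads1 (-0.26 ± 0.12, adjusted p = 0.164) did not pass. The summed signal of 7 cell cycle markers was 949 to 2028 in iNSC and 1441 to 5644 in NSC, with 4 to 6 and 5 to 7 of them detected and 0 called. That of 6 mature oligodendrocyte markers was 878 to 1222 in iNSC and 2345 to 5769 in NSC, with 1 to 3 and 4 to 5 detected. Of these 6 markers 4 were called lower in iNSC and 0 higher. Oligodendrocyte precursor markers were lower in 3 of 4 cases and higher in 0, and of 6 astrocyte markers 4 were higher and 1 lower. Their part in these differences was not tested. In bulk RNA, fewer cells of a type and less RNA per cell cannot be told apart.

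In ESC NPC against NSC, most sterol enzymes were higher in ESC NPC and most fatty acid enzymes were lower. Of 15 sterol enzymes, 9 rose, 2 fell and 4 did not pass. Msmo1 rose by 3.04 ± 0.27 (adjusted p = 1.20e-05), Hsd17b7 by 2.02 ± 0.14 (2.96e-06) and Ebp by 1.86 ± 0.26 (0.000224). Lss rose by 1.77 ± 0.13 (adjusted p = 3.46e-06) and Fdps by 1.28 ± 0.18 (0.000271), and smaller rises were called for Idi1 (1.06), Sqle (0.86), Cyp51 (0.78) and Nsdhl (0.63). The mean of the detected probes of Nsdhl gave 0.33 (adjusted p = 0.0534), and its probe ILMN_2958207 gave -0.19 ± 0.14 (0.281 in a fit over probes). The exceptions were Sc5d, which fell by 1.17 ± 0.24, and Tm7sf2, which fell by 1.08 ± 0.30. Of 9 fatty acid enzymes, 6 fell, 0 rose and 3 did not pass, and 0 were higher at an unadjusted p under 0.05. Fads2 fell by 1.92 ± 0.25 (adjusted p = 0.000149), Acss2 by 1.48 ± 0.17 (5.42e-05), Fads1 by 1.46 ± 0.12 (6.20e-06) and Acaca by 1.14 ± 0.13 (5.59e-05). Scd2 fell by 0.56 ± 0.13 and Fasn by 0.45 ± 0.15, but the adjusted p of Fasn was 0.0502 to 0.0911 when ESC NPC replicate 1 or 3, or NSC replicate 2 or 3, was left out.

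The regulators split in the same comparison. Srebf1 fell by 1.95 ± 0.16 (adjusted p = 7.52e-06) and Stard4 rose by 0.86 ± 0.18 (0.00301). Srebf2 was called higher by only 0.32 ± 0.12 (adjusted p = 0.0457), a call lost in 5 of 6 fits that left out a clone, where its adjusted p reached 0.149. Cyp51 was likewise lost without NSC replicate 1 (adjusted p = 0.0571). Over all members 11 of 28 were higher and 9 lower, shares of 39.3% and 32.1%, against 27.8% higher and 29.6% lower (57.4% in all) among all genes tested. Scaling each array to a common median, instead of equalising quantiles, shifted the all-gene median by -0.17, and the split became 7 higher and 14 lower: 7 of 15 sterol enzymes rose and 4 fell, 8 of 9 fatty acid enzymes fell, and Srebf2 turned to -0.14. The rises of Cyp51 (0.25), Nsdhl (0.17) and Stard4 (0.33) were no longer called under that scaling. The 7 cell cycle markers summed to 6484 to 7408 in ESC NPC, all detected, against 1441 to 5644 in NSC. The 7 neural stem markers summed to 4423 to 4701 in ESC NPC against 21006 to 21821 in NSC, and pluripotency markers were as given above. Their part was not tested.

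**Figure D3:**
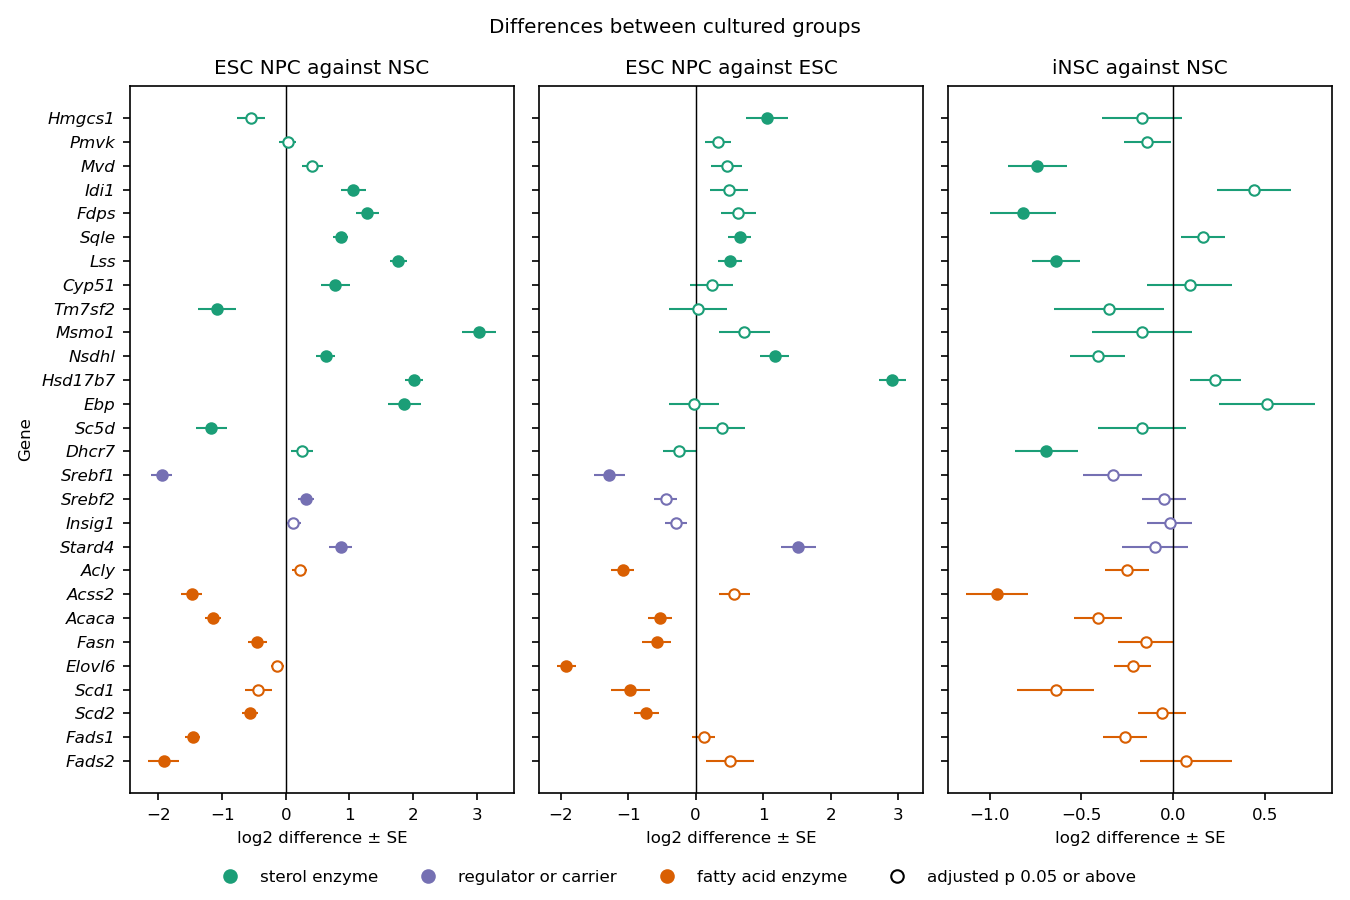
Log2 difference ± SE of the 28 tested members in 3 comparisons of cultured cells, with filled points where the adjusted p was under 0.05 and colours for sterol enzymes, regulators and fatty acid enzymes. In ESC NPC against NSC the sterol enzymes reach 3.04 for Msmo1 and the fatty acid enzymes -1.92 for Fads2, whereas iNSC against NSC stays between -0.96 and 0.51.

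Against ESC NPC, iNSC had lower levels of most sterol enzymes and higher levels of the desaturases Fads1, Fads2 and Scd2. It shares the ESC NPC arrays with the comparison above and is not independent of it. Of 15 sterol enzymes, 11 fell, 1 rose and 3 did not pass. Msmo1 fell by 3.21 ± 0.27 (adjusted p = 7.17e-06), Lss differed by -2.40 ± 0.13 (4.16e-07) and Fdps by -2.10 ± 0.18 (9.47e-06), while Sc5d was higher by 1.00 ± 0.24 (0.00511). Of 9 fatty acid enzymes, 5 rose, 1 fell and 3 did not pass. Fads2 rose by 1.99 ± 0.25 (adjusted p = 0.000102) and Fads1 by 1.20 ± 0.12 (1.87e-05), while Scd2 was higher by 0.50 ± 0.13 (0.00826) and Scd1 did not pass (-0.22 ± 0.21, 0.395). Acly fell by 0.47 ± 0.12 (adjusted p = 0.00896), which median scaling reduced to -0.09 and no longer called. Srebf1 rose by 1.62 ± 0.16 (adjusted p = 2.12e-05), and stood at or near background in ESC NPC. Over all members 7 of 28 were higher and 14 lower, 25.0% and 50%, against 31.4% and 28.9% (60.4% in all) among all genes tested. Under median scaling, which moved the median of all genes by 0.15, the members split into 10 higher and 8 lower, with 8 of 15 sterol enzymes still lower. The calls of Acss2, Cyp51, Idi1 and Srebf2 were each lost in 1 or more fits without a clone, with adjusted p from 0.0516 to 0.0830. All 7 cell cycle markers tested were called lower in iNSC (summed signal 949 to 2028, against 6484 to 7408 in ESC NPC), as were all 7 pluripotency markers (702 to 733, against 8910 to 9954) and 4 of 7 fibroblast markers (707 to 746, against 1979 to 2247). Neural stem markers were higher in 6 of 7 cases (15787 to 21250 in iNSC, against 4423 to 4701 in ESC NPC), and of 6 astrocyte markers 5 were higher and 1 lower (14777 to 18889, against 4762 to 5637). Their part in the members' values was not tested.

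The comparison of iNSC with MEF sets the induced cells beside their labelled cell of origin. Sterol enzymes were mostly lower in iNSC, and the desaturases Fads1, Fads2 and Scd2 were higher. Of 15 sterol enzymes, 8 fell, 1 rose and 6 did not pass. Lss fell by 2.63 ± 0.18 (adjusted p = 3.17e-06), and it was followed by Hsd17b7 at -2.44 ± 0.20 (1.03e-05), Fdps at -2.20 ± 0.26 (0.000101) and Dhcr7 at -2.11 ± 0.25 (8.92e-05). Hmgcs1 was the exception and rose by 1.19 ± 0.31 (adjusted p = 0.00965). Fads2 rose by 2.45 ± 0.36 (adjusted p = 0.000370) and Fads1 by 1.36 ± 0.17 (0.000117), whereas Acly fell by 1.02 ± 0.17 and Elovl6 by 0.81 ± 0.14. In all, 5 of 28 members were higher and 11 lower, 17.9% and 39.3%, against 28.0% and 21.9% (49.8% in all) among all genes tested. Median scaling moved the median of all genes by 0.21 and left 6 higher and 6 lower, with 6 of 15 sterol enzymes lower and the calls of Sqle, Cyp51, Srebf2, Acly and Elovl6 lost. All 7 fibroblast markers were detected in MEF, with a summed signal of 707 to 746 in iNSC and 23573 in MEF. MEF also detected 4 of 6 microglia markers, at levels of 4.73 to 5.15, near its lowest detected level of 4.60. Of these 6 markers 2 were called lower in iNSC, where none was detected (570 to 583, against 690 in MEF). Astrocyte markers were detected in MEF in 5 of 6 cases, with 4 of 6 called higher in iNSC and 1 lower. Mature oligodendrocyte markers were detected in MEF in 5 of 6 cases, with 1 of 6 called higher in iNSC and 1 lower. Their part was not tested.

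ESC NPC against ESC follows differentiation from the embryonic stem cell. Some sterol enzymes were higher in ESC NPC and most fatty acid enzymes were lower. Of 15 sterol enzymes, 5 rose, 0 fell and 10 did not pass, with 0 lower at an unadjusted p under 0.05. Hsd17b7 rose by 2.91 ± 0.20 (adjusted p = 4.70e-06), Nsdhl by 1.17 ± 0.22 (0.00195) and Hmgcs1 by 1.06 ± 0.31 (0.0190), with smaller rises of Sqle (0.65) and Lss (0.51). Of 9 fatty acid enzymes, 6 fell, 0 rose and 3 did not pass, with 1 higher at an unadjusted p under 0.05. Elovl6 fell by 1.92 ± 0.14 (adjusted p = 6.52e-06) and Acly by 1.08 ± 0.17 (0.000893), followed by Scd1 (-0.97), Scd2 (-0.73), Fasn (-0.58) and Acaca (-0.53). Stard4 rose by 1.52 ± 0.26 (adjusted p = 0.00121) and Srebf1 fell by 1.28 ± 0.23 (0.00151). The members split into 6 higher and 7 lower, 21.4% and 25.0%, against 22.2% and 22.5% (44.7% in all) among all genes tested, so the totals stood near the background. Under median scaling they split into 4 higher and 8 lower, and the calls of Sqle, Lss and Fasn were lost. Leaving out a single ESC NPC clone ended the calls of Acaca (adjusted p up to 0.0909), Fasn (up to 0.104), Lss (up to 0.104) and Scd1 (0.0541). For Insig1 the probes disagreed in size: its probe with the highest mean differed by -0.29 and was not called, whereas ILMN_1245272 gave -1.55 ± 0.23 (adjusted p = 0.000518) and ILMN_2606693 gave -1.47 ± 0.29 (0.00260) in a fit over probes. Of 7 pluripotency markers 6 were lower and 1 higher in ESC NPC (summed signal 8910 to 9954, against 40240 in ESC), and of 7 neural stem markers 5 were higher and 1 lower (4423 to 4701, against 1272). Fibroblast markers were higher in 4 of 7 cases (1979 to 2247, against 756 in ESC) and astrocyte markers in 4 of 6 (4762 to 5637, against 2101). The part of these markers' cells was not tested.

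The in vivo arrays were set against the cultured clones of the matching label, and each comparison rests on 1 in vivo array. Both in vivo arrays detected only 2 of 7 neural stem markers and all 6 microglia markers, so these are differences between samples. Whether they lie within neural stem cells was not tested. On iNSC in vivo, Srebf2 and a few enzymes of both branches were called higher than in iNSC, and the desaturases, Elovl6, Cyp51 and Stard4 were lower. Srebf2 rose by 2.49 ± 0.17 (adjusted p = 9.18e-07), and it stayed higher under median scaling (0.88, adjusted p = 0.00134). Idi1 rose by 1.49 ± 0.28 (adjusted p = 0.000967), Hsd17b7 by 1.39 ± 0.20 (0.000186) and Acaca by 1.24 ± 0.18 (0.000202), but all 3 turned negative under median scaling (-0.24, -0.28 and -0.33). The rises of Acly (1.16), Fdps (1.06) and Lss (0.96) turned negative there too, at -0.29, -0.50 and -0.51. Median scaling moved the median of all genes by -0.76, so directions of these genes depend on how a dim array is scaled to the others.

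Most falls on iNSC in vivo ended in undetected probes. Of the 16 members called lower, 12 were not detected on that array by the probe used, Nsdhl among them, and for these only a bound can be given, the iNSC mean against the higher of the array's lowest detected level and the probe's own. Fads2 was at least 5.91-fold lower (adjusted p = 1.87e-06), Scd2 at least 5.80-fold (6.41e-08) and Stard4 at least 3.80-fold (5.32e-07). Cyp51 and Insig1 were each at least 3.14-fold lower and Elovl6 at least 2.54-fold. For Sc5d, Dhcr7, Srebf1 and Fasn the iNSC mean itself lay under the lowest level detectable in vivo, so no fold is given. The 4 detected members that fell were Sqle (-2.03 ± 0.17, adjusted p = 4.16e-06), Scd1 (-1.23 ± 0.29, 0.00394), Acss2 (-1.22 ± 0.23, 0.00113) and Fads1 (-0.62 ± 0.17, 0.00749). In all 7 of 28 members were higher and 16 lower, 25.0% and 57.1%, against 33.6% and 34.4% (68.0% in all) among all genes tested. Median scaling gave 1 higher and 19 lower.

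On NSC in vivo the picture against NSC was similar for the fatty acid enzymes, and more sterol enzymes were lower. Of 15 sterol enzymes 10 fell, 2 rose and 3 did not pass. Sqle fell by 3.31 ± 0.17 (adjusted p = 1.52e-07) and Fdps by 1.26 ± 0.26 (0.00186), both detected on the array. Scd2 was at least 6.33-fold lower (adjusted p = 9.57e-08), Fads2 at least 5.88-fold (1.94e-06), Stard4 at least 4.26-fold (3.70e-05), Insig1 at least 3.32-fold (2.38e-06), Cyp51 at least 3.09-fold (5.86e-06) and Elovl6 at least 3.08-fold (2.11e-08). Of the 19 members called lower, 15 were not detected on the array, and Lss, Sc5d and Fasn have no bound. Msmo1 (at least 1.91-fold) lost its call without NSC replicate 2 (adjusted p = 0.0518). Srebf2 (1.60 ± 0.17, adjusted p = 2.12e-05), Idi1 (1.37), Hsd17b7 (0.91), Acly (0.56) and Acaca (0.49) were called higher, and every one of these 5 turned negative under median scaling, Srebf2 to -0.27 and Idi1 to -0.35. Acaca was not called without NSC replicate 1 (adjusted p = 0.0866) or replicate 3 (0.0738). The split was 5 higher and 19 lower, 17.9% and 67.9%, against 33.9% and 34.1% (68.0% in all) among all genes tested, and it became 0 higher and 26 lower under median scaling, which moved the median of all genes by -0.84.

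Markers of other brain cells moved with these comparisons. All 6 microglia markers were detected on both in vivo arrays and in no clone, with a summed signal of 4496 on iNSC in vivo against 570 to 583 in iNSC, and 2146 on NSC in vivo against 591 to 596 in NSC. Mature oligodendrocyte markers were detected in 5 of 6 cases on each in vivo array and summed to 5270 on iNSC in vivo against 878 to 1222 in iNSC, and to 11387 on NSC in vivo against 2345 to 5769 in NSC. Endothelial markers were detected in 3 of 4 cases on iNSC in vivo (1032, against 507 to 552 in iNSC) and 4 of 4 on NSC in vivo (3705, against 391 to 441 in NSC). Red blood cell markers were detected in 1 of 2 cases on iNSC in vivo (329, against 189 to 194 in iNSC) and 2 of 2 on NSC in vivo (3084, against 187 to 190 in NSC). Cell cycle markers were detected in 1 of 7 cases on each in vivo array, with Top2a, Ccna2 and Cdk1 among those undetected. Astrocyte markers were detected in 5 of 6 cases on iNSC in vivo, where they summed to 2421 against 14777 to 18889 in iNSC. Their mean normalised level there was 8.22 against 8.75 to 9.01, with 2 of 6 called higher and 4 lower. On NSC in vivo 4 of 6 were detected, and they summed to 3459 against 20844 to 27083 in NSC. The mean normalised level was 7.79 against 9.11 to 9.48, with 1 of 6 called higher and 4 lower. Sums on the dimmer in vivo arrays are thus not on the scale of the levels. The part of these cells in the members' values was not tested.

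**Figure D4:**
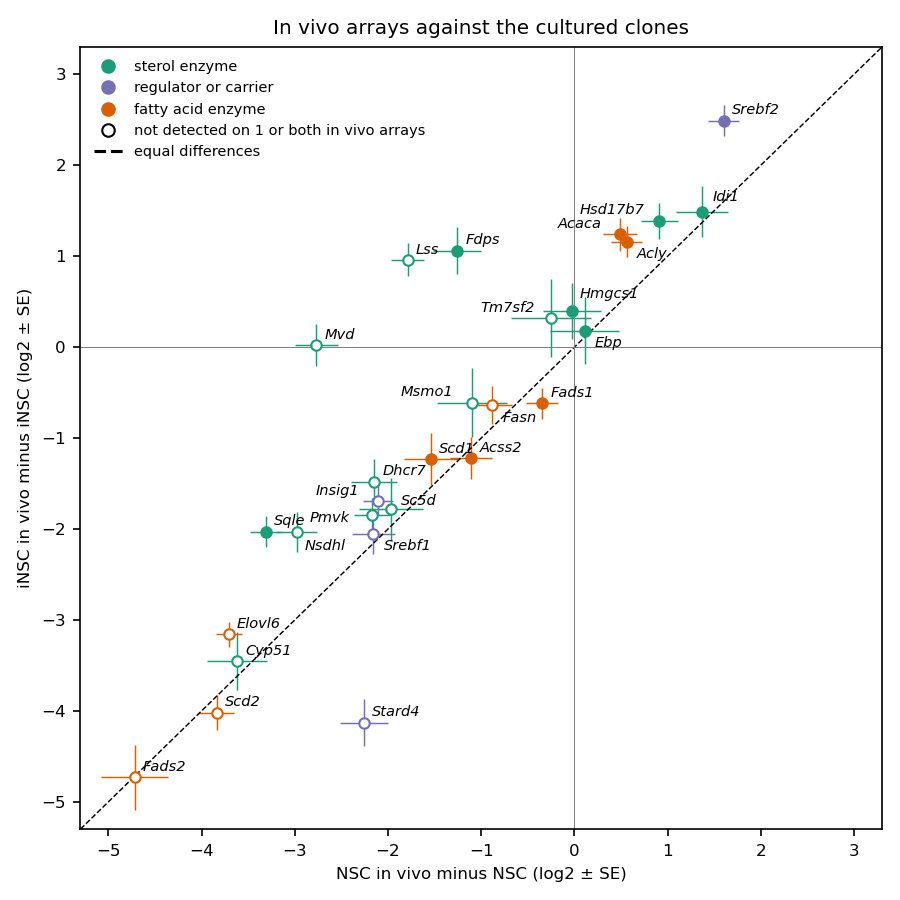
Log2 difference ± SE of each tested member on iNSC in vivo against iNSC (vertical axis) and on NSC in vivo against NSC (horizontal axis), with open points where the gene's probe was not detected on 1 or both in vivo arrays and a dashed line of equal differences. Most members lie along the line, Lss, Mvd and Fdps lie well above it and Stard4 lies below it.

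The change in vivo of iNSC was also tested against the change in vivo of NSC. A change in vivo here is the difference between an in vivo array and the cultured clones of its label, whatever cells the array holds. The test asks whether this difference was unequal for iNSC and NSC. It passed for 7 of 28 members: 5 of 15 sterol enzymes, 2 of 4 regulators and carriers (Srebf2 and Stard4) and 0 of 9 fatty acid enzymes. Of the fatty acid enzymes 3 were higher at an unadjusted p under 0.05 (limma). Mvd had a difference of 2.79 ± 0.33 between the changes (adjusted p = 0.000231), Lss 2.75 ± 0.26 (5.46e-05), Fdps 2.32 ± 0.37 (0.00149) and Sqle 1.27 ± 0.24 (0.00417), each toward higher values in iNSC. Fdps and Sqle were detected on both in vivo arrays, and Mvd and Lss on iNSC in vivo only. When every level under the highest array floor was raised to it, Mvd stood at 0.93 (adjusted p = 0.128) and Lss at 0.21 (0.465). Averaging both probes of Sqle gave 0.59 (adjusted p = 0.135). Srebf2 differed by 0.89 ± 0.24 (adjusted p = 0.0225), a call that the authors' deposited values did not keep (0.93, 0.0671). Nsdhl (0.95 ± 0.31, adjusted p = 0.0471) and Stard4 (-1.87 ± 0.37, 0.00482) were called, but the probes used for them were not detected on an in vivo array. ILMN_2958207 of Nsdhl was detected on iNSC in vivo and not on NSC in vivo. The call of Nsdhl was lost without iNSC replicate 1 or 3 and without NSC replicate 2 or 3 (adjusted p 0.0602 to 0.0683). Of the 28 members 6 were higher and 1 lower, 21.4% and 3.57%, against 13.5% and 14.3% (27.8% in all) among all genes tested, and among the 15 sterol enzymes 5 were higher and 0 lower, also 0 lower at an unadjusted p under 0.05. Median scaling shifted the median of all genes by 0.02 and left 5 members higher and 0 lower, with Nsdhl at 0.67 (adjusted p = 0.238) and Stard4 at -0.50 (0.458) no longer called. Among the 12 members detected on every array compared, 3 were called.

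Set directly beside each other, the 2 in vivo arrays allow no test. Fdps was 1.50 higher (log2) on iNSC in vivo than on NSC in vivo and Sqle 1.44, both detected on both arrays, with Srebf2 next at 0.84. Acss2, also detected on both, was lower by 1.07, followed by Fads1 (-0.54) and Scd1 (-0.34). Of the 12 members detected on both arrays, 2 were higher and 1 lower by 2-fold or more, against 8.13% higher and 8.11% lower among the 4859 genes so detected, a restriction chosen after the values were seen. Lss and Mvd were not detected on NSC in vivo, so only bounds can be given: on iNSC in vivo Lss was at least 1.20-fold higher and Mvd at least 1.19-fold. Stard4 and Scd2 were detected on neither array, and no difference is given for them. With undetected values taken as measured, 4 of 28 members were higher and 2 lower by 2-fold or more, against 9.18% higher and 9.21% lower among all genes tested.

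Probes of the same gene were compared where more than 1 was detected. Both probes of Sqle moved the same way in each of the 7 comparisons between groups, and neither was called in iNSC against NSC. They parted in the size of the change in vivo. ILMN_2600348, detected on neither in vivo array, gave -2.57 on iNSC in vivo against iNSC and -2.48 on NSC in vivo against NSC. The probe used for the gene gave -2.03 and -3.31. For Nsdhl, 3 of 4 probes were called lower on iNSC in vivo against iNSC and were not detected on that array, whereas ILMN_2958207 rose by 1.54 ± 0.19 (adjusted p = 6.36e-05 in a fit over probes). On NSC in vivo none of the 4 probes was detected (4.20 to 4.27), and the NSC mean of ILMN_2958207 (6.02) lay under the lowest level detected on that array, so no fold is given. For Insig1, ILMN_1245272 was not called on iNSC in vivo against iNSC (-0.20 ± 0.23, adjusted p = 0.474) or on NSC in vivo against NSC (0.42 ± 0.23, 0.137), whereas the probe used for the gene fell in both.

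Related genes outside the list were counted in the same way. In ESC NPC against NSC, 27.8% of all genes tested were higher and 29.6% lower. Of 6 other cholesterol pathway genes tested, 2 rose (33.3%) and 1 fell (16.7%) in that comparison. Lbr, a lamin B receptor that also has sterol reductase activity, was higher by 2.38 ± 0.19 (adjusted p = 6.30e-06), and Scap, the escort of SREBP, fell by 0.97 ± 0.12 (0.000116). In the sterol efflux and LXR list (5 tested) 2 fell and 0 rose, also 0 higher at an unadjusted p under 0.05. Apoe, the main apolipoprotein of brain, fell by 4.46 ± 0.26 (adjusted p = 7.95e-07). Most fatty acid oxidation genes were also lower in that comparison: 8 of 10 fell and 0 rose, also 0 at an unadjusted p under 0.05, with Acadl at -2.22 ± 0.12 and Acadvl at -2.07 ± 0.11, both acyl-CoA dehydrogenases. In iNSC against NSC the fatty acid oxidation list had 1 higher and 1 lower of 10, near the 10.3% higher and 9.42% lower among all genes tested. Of 18 other genes of fatty acid synthesis, elongation and activation, 6 were lower (33.3%) and 1 higher (5.56%) in iNSC against NSC. Acsl6 stood at -1.86 ± 0.30, Thrsp at -1.67 ± 0.26 and Me1 at 0.68 ± 0.18.

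In vivo, the related lists did not move together. Among all genes tested, 33.6% were higher and 34.4% lower on iNSC in vivo against iNSC. On NSC in vivo against NSC these shares were 33.9% and 34.1%. Of 5 sterol efflux and LXR genes, 4 were higher and 1 lower on iNSC in vivo, and 3 and 1 on NSC in vivo. Median scaling gave 3 and 1 on iNSC in vivo, and 1 and 3 on NSC in vivo. Between the changes in vivo, this list had 4 higher and 1 lower of 5. The sterol storage, transport and oxysterol list had 3 higher and 0 lower of 9 there, and other cholesterol pathway genes 0 and 2 of 6. Among all genes tested 13.5% were higher and 14.3% lower there. Sterol storage, transport and oxysterol genes had 5 higher and 2 lower of 9 on iNSC in vivo against iNSC, and the same numbers on NSC in vivo against NSC, which median scaling turned to 3 higher and 3 lower on iNSC in vivo and 3 higher and 5 lower on NSC in vivo. The oxysterol enzymes Cyp27a1 and Ch25h were detected on iNSC in vivo and in no iNSC clone: Cyp27a1 was at least 20.4-fold higher and Ch25h at least 14.8-fold. On NSC in vivo Cyp27a1 was at least 10.6-fold higher than in NSC and Ch25h at least 15.9-fold. The microglia, mature oligodendrocyte, endothelial and red blood cell markers given above also had higher summed signals in both comparisons. Their part in these values was not tested. Fatty acid oxidation genes were lower in 7 of 10 and higher in 0 of 10 in both comparisons, with 0 higher at an unadjusted p under 0.05 in either. Acadm fell by 4.14 ± 0.16 on iNSC in vivo and by 3.79 ± 0.16 on NSC in vivo. Among the other fatty acid genes the carbohydrate-responsive factor Mlxipl was at least 34.6-fold higher on iNSC in vivo, and Tecr, the reductase that ends each elongation cycle, was at least 16.5-fold lower there and at least 21.0-fold lower on NSC in vivo. Median scaling kept the direction of all 5 genes named here.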

How the data were processed

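Total RNA of 13 samples was measured on Illumina mouse bead arrays. The authors deposited bead signals as linear intensity with a detection p-value per probe, and a second set of log2 values whose submitters' processing notes name BeadStudio 3.2, RMA and lumi; the order of those steps is not given in the sources used here. Here limma 3.58.1 in R 4.3.3 corrected the deposited intensity with normexp (background inferred from the detection p-values, offset 16), normalized by quantiles and took log2. Of 25697 probes 23978 had 1 gene symbol and 1719 had none, and 16 were not matched by gene ID. Genes with a detection p under 0.01 on at least 1 array were kept, each by its probe with the highest mean. A single fit of 7 groups (6 residual degrees of freedom, 3.10 prior) gave two-sided p-values, adjusted by Benjamini-Hochberg over all 10923 genes, with a threshold of 0.05. It was also run on data simulated from its own assumptions, with equal spread in every group and no detection floor. That run cannot check the spread borrowed for single arrays or the dim in vivo arrays. The precision is limited by the number of arrays.

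The members and lists were chosen with earlier results of these data known. Values on every array are given for the 12 members with the widest range of group means and the 3 called members with the largest rise and fall in each comparison, and ranges for the others; from each related list at most the 2 called genes with the largest change each way are named. Fold bounds for undetected genes set the bright group's mean against the higher of the dim array's lowest detected level and the gene's own. Same-numbered iNSC and NSC clones deviated together (r = 0.211, 0.503 and 0.276), but so did iNSC 1 with NSC 3 (0.235). The other pairs of unlike number had -0.403 to -0.0580. The clone number is thus not a clear pairing, and a fit with it as a block is given only beside that comparison. Same-numbered clones of iNSC and ESC NPC (0.0362 to 0.115) and of NSC and ESC NPC (-0.0420 to -0.00918) did not deviate together. The alternatives were background correction, scaling, the authors' deposited log2 values, detection filters, probe choice, smaller fits, the block, each clone left out and, chosen after seeing the data, a raised floor.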

Additional observations from a re-analysis of the deposited data

Results flagged for a closer look

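In 7 members the change in vivo differed between iNSC and NSC by a test of the difference itself (limma, adjusted over all 10923 genes), each resting on 1 in vivo array of each label. Toward higher values in iNSC these were Mvd (2.79 on the log2 scale), Lss (2.75), Fdps (2.32), Sqle (1.27), Nsdhl (0.95) and Srebf2 (0.89), and toward lower values Stard4 (-1.87). Only Fdps, Sqle and Srebf2 of these were detected on both in vivo arrays, and with levels under the highest array floor raised to it Mvd stood at 0.93 and Lss at 0.21. The oligodendrocyte markers summed to 5270 on iNSC in vivo and 11387 on NSC in vivo, and the microglia markers to 4496 on iNSC in vivo and 2146 on NSC in vivo; their part in these differences was not tested.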

How the results depend on the processing

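Over 2915 values of members under the alternatives, 2740 stayed on the same side of the threshold, 103 lost a call, 51 gained a call and 21 reversed. Reversed means that the direction changed in a value called in the main fit, the alternative or both. A call lost with a change of direction counts as reversed. Changes of direction in values called in neither fit were not counted. Leaving out a clone reversed none and using the deposited values reversed none. Median scaling reversed 20. In ESC NPC against NSC it gave Pmvk -0.40, Srebf2 -0.14 and Insig1 -0.40, and in iNSC against ESC NPC it gave Srebf2 0.03, Insig1 0.34 and Elovl6 0.35. In iNSC in vivo against iNSC it gave Mvd -1.61, Idi1 -0.24, Fdps -0.50, Lss -0.51, Hsd17b7 -0.28, Ebp -1.68, Acly -0.29 and Acaca -0.33. In NSC in vivo against NSC it gave Idi1 -0.35, Hsd17b7 -0.98, Ebp -1.75, Srebf2 -0.27, Acly -0.95 and Acaca -1.13. The cause was not tested. Raising every level to the highest array floor turned the Stard4 difference between the changes in vivo to 0.10.

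The number of members called in iNSC against NSC was 3 in a fit of only those groups and 4 to 8 when a clone was left out. In fits with clone numbers as a replicate block it was 4, against 21 in ESC NPC against NSC and 22 in iNSC against ESC NPC. Among members detected on every array compared, 11 of 16 were called in iNSC in vivo against iNSC, 9 of 12 in NSC in vivo against NSC and 3 of 12 between the changes in vivo. Members not detected on an array compared are left out of these counts. Raising levels to the highest floor left 15 calls in NSC in vivo against NSC and 3 between the changes in vivo. No chip block could be fitted, since no column or header names a chip. With 1 array each, the in vivo, MEF and ESC samples have no spread of their own, and signal over background limits every low gene in vivo.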
